A study of Mus musculus with 48 samples.

Results

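The genes that build lymphatic valves or sense flow were followed through the lymphatic and blood endothelium of mouse heart and diaphragm. The set held 10 of the 54752 genes in the matrix, chosen by name: the transcription factors Foxc1, Foxc2, Gata2 and Nfatc1, the junction genes Gja4 and Cldn11, the mechanically gated channels Piezo1 and Piezo2, and the shear-responsive factors Klf2 and Klf4. Levels came from RNA-seq of 48 libraries from 13 male Prox1-eGFP mice on C57BL/6, aged 8 to 16 months by the labels (the study's methods give ages in weeks, so the unit is unsure and the ages served only as a covariate), and are given as TPM (a gene's share of all transcripts, scaled to the same total in every library and adjusted for gene length). Each mouse had received BSA alone (ctrl), angiotensin II in BSA (angII, used to bring on chronic cardiac dysfunction) or angiotensin II with VEGFCc156s, a VEGF-C variant selective for VEGFR-3 (angII+VEGFC), and tissue was taken after 5 to 6 weeks. Heart lymphatic endothelial cells (LEC), diaphragm LEC, heart blood endothelial cells (BEC) and cardiomyocytes each gave 4 ctrl, 5 angII and 3 angII+VEGFC libraries.

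LEC were sorted as CD31-positive, CD45.2-negative cells with eGFP and BEC as the same cells without it, whereas cardiomyocytes were pelleted and not sorted. The eGFP was expressed from the Prox1 locus itself, so the level of Prox1 was part of the sort. BEC were taken from heart only, and the diaphragm LEC against heart BEC comparison therefore cannot tell organ and cell type apart. The endothelial libraries were sequenced in 2 batches, each with libraries of every treatment. The cardiomyocyte libraries were a separate batch of their own. The sorted populations carried the markers of their labels. The summed level of 7 LEC markers was 18170 to 32107 TPM in heart LEC and 22654 to 43488 TPM in diaphragm LEC against 216 to 708 TPM in heart BEC, and 8 BEC markers summed to 15108 to 22424 TPM in heart BEC, 3263 to 9624 TPM in heart LEC and 2406 to 3388 TPM in diaphragm LEC. Of the 8, Plvap went the other way and was higher in heart LEC than in heart BEC by 1.41 ± 0.13 (log2, SE). Its level is part of each sum of BEC markers. The diaphragm LEC library of mouse 4 (angII) stood apart, with the lowest LEC marker sum of 22654 TPM against 35323 TPM or more in the other 11. Between 12924 and 25896 genes reached 1 TPM in an endothelial library.

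A lymphatic valve is a pair of leaflets of endothelium on a matrix core that keeps lymph from running back. Valve cells arise where flow is disturbed: oscillating shear raises FOXC2 and GATA2, and with PROX1 and calcineurin-NFATC1 signalling these set up a cluster of cells joined by connexin 37, the product of Gja4. PIEZO1 opens under membrane tension and is needed for valves to form and last, while KLF2 and KLF4 are transcription factors that steady laminar shear induces in endothelium through the MEKK3, ERK5 and MEF2 cascade.

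Of the 10 genes, 5 were higher in heart LEC than in heart BEC, and the other 5 did not pass the test. Foxc2, Nfatc1, Gja4, Cldn11 and Piezo2 were called in the mean over the 3 treatments (limma on log2(TPM + 1), adjusted p under 0.05 over 28938 genes), where 20.6% of all genes were called, 10.6% as higher and 9.99% as lower. The median difference over the 10 genes was 1.01 on the log2 scale, beside 0.17 over all genes tested. The same 5 genes were called within ctrl, within angII and within angII+VEGFC, where 9.46%, 13.4% and 7.16% of all genes were called. Diaphragm LEC against heart BEC gave 7 calls, 5 higher and 2 lower, against 19% of all genes (8.68% higher and 10.3% lower). As these are bulk libraries, fewer cells of a type and less RNA per cell cannot be told apart in any of the values below.

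**Figure D1:**
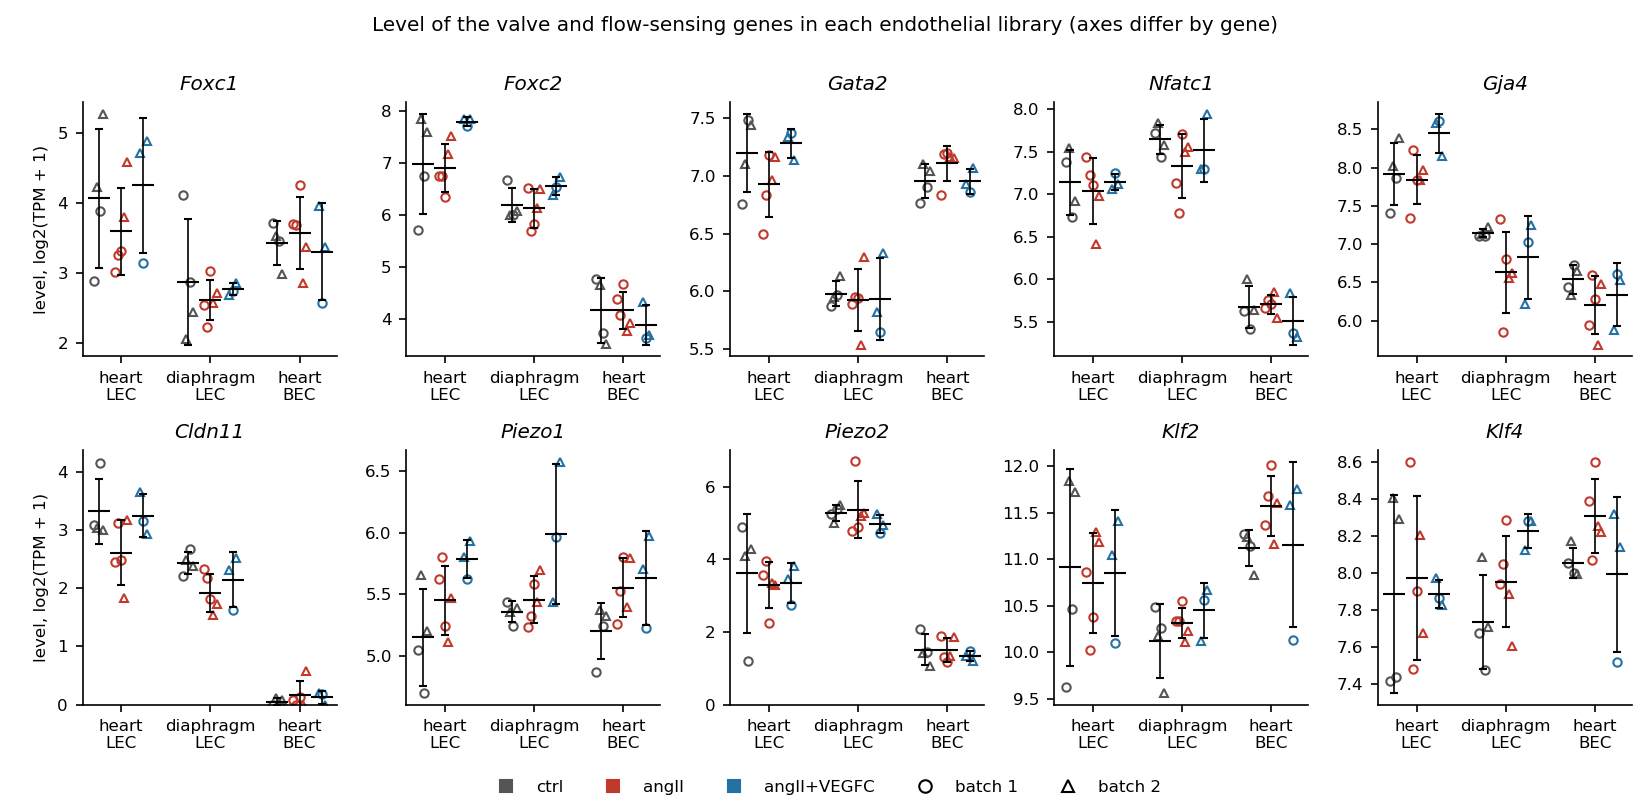
Level of each of the 10 genes in the 36 endothelial libraries, on the log2(TPM + 1) scale, by population and treatment. Each point is 1 library (1 mouse), circles are batch 1 and triangles batch 2, and bars show mean and SD of a treatment group. The heart LEC and heart BEC libraries do not overlap for Foxc2, Nfatc1, Gja4 and Cldn11, and the axes differ by gene.

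Among the transcription factors, Foxc2 showed the widest gap between heart LEC and heart BEC. FOXC2, a forkhead factor whose loss leaves collecting lymphatics without valves, was encoded at 8:121116171-121118895 on GRCm38. Its level in heart LEC ranged from 51.8 TPM to 231 TPM with a median of 164 TPM (156 ± 64.3, SD, n = 12). In diaphragm LEC it ran from 50.7 TPM to 105 TPM with a median of 76.2 TPM (77.7 ± 18.3), and in heart BEC from 10.6 TPM to 26.2 TPM with a median of 15.1 TPM (16.9 ± 5.65). Every LEC library of either organ lay above every BEC library, while the 2 LEC populations overlapped. The fitted difference was 3.16 ± 0.19 (log2, SE; adjusted p = 5.07e-15) for heart LEC and 2.21 ± 0.19 (adjusted p = 1.81e-11) for diaphragm LEC, and heart LEC exceeded BEC of the same mouse in 12 of 12 mice. Heart LEC were also above diaphragm LEC by 0.95 ± 0.19 (adjusted p = 0.00106).

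Foxc1, which encodes the close relative of FOXC2 and is also needed in valve cells, was far lower and did not follow its relative. It had a median of 13.4 TPM in heart LEC (6.36 to 37.8), 5.50 TPM in diaphragm LEC (3.14 to 16.4) and 10.3 TPM in heart BEC (4.96 to 18.1), so that all 3 populations overlapped. The heart LEC to heart BEC difference of 0.54 ± 0.26 (95% interval 0.01 to 1.07) did not pass the test after adjustment (adjusted p = 0.147), nor did that of diaphragm LEC (-0.66 ± 0.26, adjusted p = 0.0752). Without mouse 1 both were called, at 0.70 (adjusted p = 0.0273) and -0.77 (adjusted p = 0.0144), and without mouse 6 the second was (-0.79, adjusted p = 0.0455). Between the LEC of the 2 organs, Foxc1 was higher in heart by 1.20 ± 0.26 (adjusted p = 0.00269), in 10 of 11 mice, but the size differed between the sequencing batches, as described further on.

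Gata2 separated the LEC of the 2 organs and not the LEC and BEC of heart. GATA2, a zinc finger factor that acts upstream of Foxc2 and Prox1 in valve cells, had a median of 141 TPM in heart LEC (89.3 to 178), 132 TPM in heart BEC (108 to 145) and 60.8 TPM in diaphragm LEC (45.5 to 79.6). All 12 diaphragm LEC libraries lay below the lowest library of both heart populations. Heart LEC and heart BEC differed by 0.13 ± 0.10 with a 95% interval of -0.07 to 0.33 (adjusted p = 0.359), and heart LEC were higher in 7 of 12 mice. Diaphragm LEC were lower than heart BEC in 11 of 11 mice, with a difference of -1.05 ± 0.10 (adjusted p = 1.09e-10), and heart LEC exceeded diaphragm LEC by 1.18 ± 0.10 (adjusted p = 1.29e-10) in 11 of 11 mice.

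Nfatc1 was the transcription factor of the 4 with its highest mean in diaphragm LEC. NFATC1 moves to the nucleus after dephosphorylation by calcineurin and is used in both lymphatic and cardiac valve formation. Its median was 184 TPM in diaphragm LEC (109 to 246), 138 TPM in heart LEC (84.4 to 186) and 49.2 TPM in heart BEC (39.0 to 63.3). All LEC libraries exceeded all BEC libraries, and the differences were 1.48 ± 0.12 for heart LEC (adjusted p = 1.32e-11) and 1.86 ± 0.12 for diaphragm LEC (adjusted p = 2.31e-14). Heart LEC were below diaphragm LEC in 10 of 11 mice, but the difference of -0.38 ± 0.12 did not pass the adjusted test (adjusted p = 0.0640). It was called when mouse entered as a fixed block (-0.45, adjusted p = 0.0108) or as a random block (-0.39, adjusted p = 0.0349), and without mouse 4 (-0.43, adjusted p = 0.0153) or mouse 3 (-0.43, adjusted p = 0.0432).

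The junction genes were both higher in LEC, at very different levels. Gja4, at 4:127311421-127314039, encodes connexin 37, a gap junction protein of lymphatic valve cells and of arterial endothelium. It had a median of 253 TPM in heart LEC (161 to 390.4), 133 TPM in diaphragm LEC (56.5 to 159) and 87.0 TPM in heart BEC (50.5 to 105). No heart LEC library overlapped with either other population, whereas diaphragm LEC and heart BEC did overlap. The difference from heart BEC was 1.71 ± 0.15 for heart LEC (adjusted p = 4.83e-11) and 0.52 ± 0.15 for diaphragm LEC (adjusted p = 0.0105), and heart LEC exceeded diaphragm LEC by 1.19 ± 0.15 (adjusted p = 8.81e-07). Arterial endothelium also expresses Gja4, and the 7 arterial markers summed to 276 to 514 TPM in heart LEC, 318 to 543 TPM in diaphragm LEC and 421 to 638 TPM in heart BEC. The 7 did not move together. Sema3g and Gja5 were lower than in heart BEC in heart LEC (-3.00 and -2.59) and diaphragm LEC (-4.16 and -3.41), while Bmx was 1.42 higher in diaphragm LEC. Efnb2 is also on the list of valve partners. The sum is thus no measure of arterial cells among LEC, and their part in Gja4 was not tested.

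Cldn11 encodes a claudin, a strand protein of tight junctions, that marks valve endothelium. It was low in heart LEC, at 2.57 to 16.9 TPM with a median of 7.38 TPM, and lower in diaphragm LEC, at 1.90 to 5.38 TPM with a median of 3.81 TPM. In heart BEC it was listed at 0 in 5 of 12 libraries, and the highest of the other 7 reached 0.488 TPM. Every LEC library was thus above every BEC library. The differences on the log2(TPM + 1) scale, which understates those of low genes, were 2.95 ± 0.20 (adjusted p = 9.53e-14) and 2.07 ± 0.20 (adjusted p = 2.73e-10). With a pseudocount of 0.1 they were 5.52 and 4.48. Heart LEC exceeded diaphragm LEC in 11 of 11 mice by 0.88 ± 0.20 (adjusted p = 0.00466), although that call was lost with a pseudocount of 0.1 (1.03, adjusted p = 0.0738) and after quantile normalisation (0.65, adjusted p = 0.0846).

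**Figure D2:**
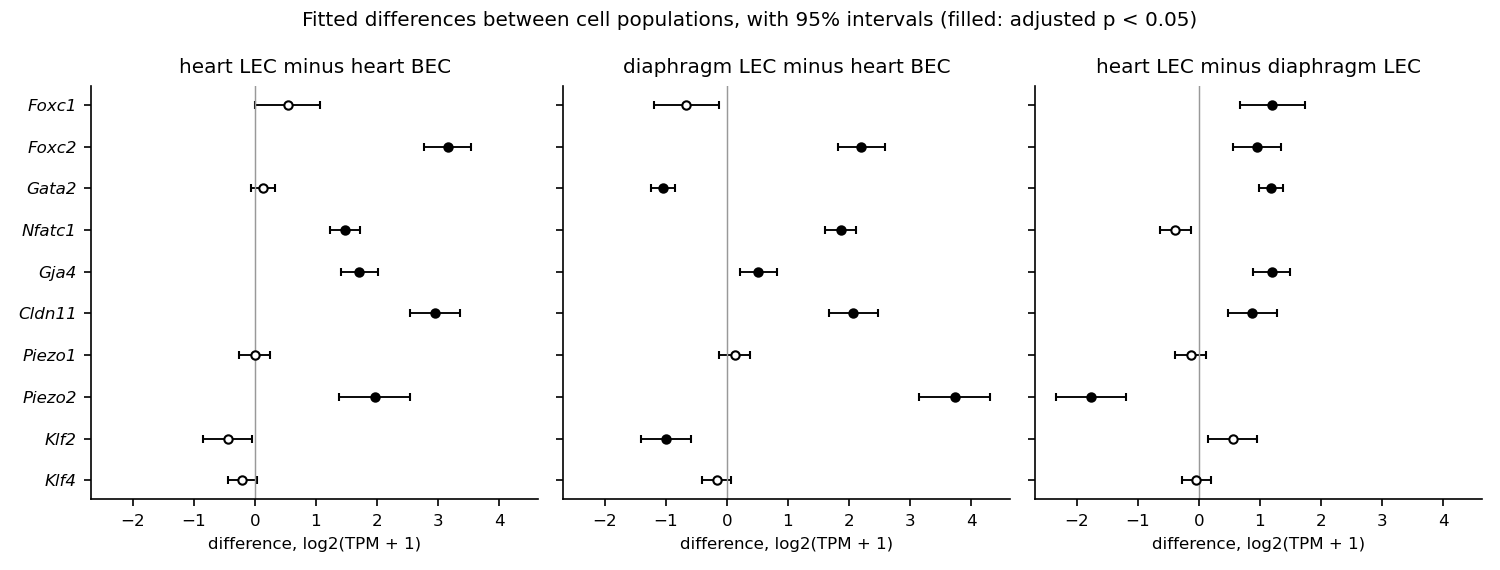
Fitted differences of the 10 genes between the 3 endothelial populations, in log2(TPM + 1), as the mean over treatments with 95% intervals from the moderated limma fit. Filled circles had an adjusted p under 0.05. Piezo2 was 3.73 higher in diaphragm LEC than in heart BEC, and Piezo1 lay near 0 in each of the 3 comparisons.

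The 2 Piezo channels, which let cations in when the membrane is stretched, differed from each other. Piezo1 showed no difference past the threshold across the endothelium, with a median of 45.8 TPM in heart LEC (24.9 to 60.1), 42.4 TPM in diaphragm LEC (36.6 to 94.3) and 40.7 TPM in heart BEC (28.2 to 61.8). The 3 ranges overlapped, although the highest diaphragm LEC library, at 94.3 TPM, lay above both heart ranges and both heart ranges began lower. The difference between heart LEC and heart BEC was -0.00 ± 0.12 with a 95% interval of -0.25 to 0.25, and that between diaphragm LEC and heart BEC was 0.13 ± 0.12 (-0.12 to 0.39). Piezo1 overlaps Ctu2, on the opposite strand, over 2441 bases, and the libraries were not stranded, so reads in the shared stretch could not be assigned by strand. Ctu2 stood at 23.7, 23.7 and 24.8 TPM in heart LEC, diaphragm LEC and heart BEC.

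Piezo2, better known from touch-sensing neurons, was by contrast higher in both LEC populations than in heart BEC, and highest in diaphragm LEC. Its median was 36.1 TPM there (25.5 to 104.7), 10.5 TPM in heart LEC (1.30 to 28.5) and 1.62 TPM in heart BEC (1.10 to 3.26). Diaphragm LEC did not overlap with heart BEC, and heart LEC spanned the space between, with the lowest and the highest heart LEC values both in ctrl mice. Piezo2 was 3.73 ± 0.28 higher in diaphragm LEC than in heart BEC (adjusted p = 8.15e-13, a 13.3-fold ratio on the TPM + 1 scale) and 1.96 ± 0.28 higher in heart LEC (adjusted p = 1.48e-06). Heart LEC were below diaphragm LEC in 11 of 11 mice, with a difference of -1.77 ± 0.28 (adjusted p = 5.38e-05). The value of 104.7 TPM came from the library of mouse 4, and without that mouse the diaphragm LEC differences were 3.63 against heart BEC and -1.67 for heart LEC against diaphragm LEC, both still called.

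Klf2 was the most abundant of the 10 genes in every population. KLF2 holds endothelium quiescent under laminar flow and, like KLF4, is also an immediate early gene whose message can change while tissue is dissociated. By mean level Klf2 ranked 51st of all genes in heart LEC, 46th in heart BEC and 99th in diaphragm LEC. Its median was 1991 TPM in heart LEC (789 to 3652), 2555 TPM in heart BEC (1126 to 4134) and 1259 TPM in diaphragm LEC (757 to 1631). Diaphragm LEC were lower than heart BEC in 10 of 11 mice, with a difference of -0.996 ± 0.198 (adjusted p = 1.89e-04). Heart LEC did not pass the test against heart BEC (-0.44 ± 0.20, 95% interval -0.84 to -0.04, adjusted p = 0.115) or against diaphragm LEC (0.55 ± 0.20, 95% interval 0.15 to 0.96, adjusted p = 0.102). Both differences varied between the 2 sequencing batches, as described further on. The change between batches passed a test against diaphragm LEC only.

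Klf4 encodes the partner of KLF2 in the shear response, with partly shared targets. It stood at 170 to 387 TPM in heart LEC, 177 to 311 TPM in diaphragm LEC and 183 to 387 TPM in heart BEC, with medians of 235, 254 and 284 TPM. The 3 populations overlapped. None of the differences passed the test, with values of -0.20 ± 0.12 (95% interval -0.44 to 0.04) for heart LEC and -0.16 ± 0.12 (-0.40 to 0.08) for diaphragm LEC against heart BEC. The 17 dissociation-responsive genes, which do not include Klf2 or Klf4, summed to 32079 to 48364 TPM in heart LEC, 33546 to 52860 TPM in diaphragm LEC and 37892 to 57401 TPM in heart BEC. The heart BEC library with the lowest sum, that of mouse 6, was also the one with the lowest Klf2 and Klf4 (1126 TPM and 183 TPM), and the part of dissociation in these values was not tested. Of these 17 genes, 10 were lower and 1 higher in heart LEC than in heart BEC, 8 lower and 2 higher in diaphragm LEC, and 3 lower and 2 higher in heart LEC than in diaphragm LEC. Hspa1a, a heat shock chaperone gene, differed most (-1.86, -3.30 and 1.44).

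The sequences just upstream of Klf2 and Klf4 are shown because the flow cascade that induces both acts through MEF2, and only one of the windows held a match to its motif. Each is the 250 bases before the RefSeq start on GRCm38.p6, at chr8:72318812-72319061 on the plus strand for Klf2 and chr4:55532476-55532725 on the minus strand for Klf4, written 5′ to 3′ on the strand of the gene. Capitals mark motif matches.
Klf2: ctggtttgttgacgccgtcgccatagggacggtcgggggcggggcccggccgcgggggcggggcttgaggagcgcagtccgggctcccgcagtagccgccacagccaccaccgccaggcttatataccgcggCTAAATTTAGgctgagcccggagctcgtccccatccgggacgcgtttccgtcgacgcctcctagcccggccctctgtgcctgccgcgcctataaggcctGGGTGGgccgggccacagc
Klf4: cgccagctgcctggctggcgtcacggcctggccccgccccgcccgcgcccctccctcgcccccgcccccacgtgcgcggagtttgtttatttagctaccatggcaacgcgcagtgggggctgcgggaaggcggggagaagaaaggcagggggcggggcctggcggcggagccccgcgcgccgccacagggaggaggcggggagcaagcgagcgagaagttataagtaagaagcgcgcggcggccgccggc
In the Klf2 window the match to MEF2 (CTAAATTTAG) covered bases 133 to 142 and began 118 bases before the start. The box that KLF factors bind, searched as CCACCC and matched on the minus strand as GGGTGG, covered bases 232 to 237. The other motifs searched on both strands were TGTTTAC for forkhead factors, AGATAA for the GATA2 family and GGAAAA for NFATC1 and its relatives. The Klf4 window held no match to any of the 5. Of 32841 promoter windows of the same length, 2.92% held a MEF2 match and 28.1% the KLF box, against 3.17% for the forkhead motif, 9.99% for the motif of GATA2 and 20.4% for that of NFATC1. Of the other members with a window, Foxc1 held a single match to the NFATC1 motif, 60 bases before its start, and Gata2, Gja4, Cldn11 and Piezo1 held none of the 5 motifs. A match says that these letters are present and not that a factor binds there.

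Set side by side, the LEC of the 2 organs differed in 6 of the 10 genes, 5 higher in heart (Gata2, Foxc1, Gja4, Foxc2 and Cldn11) and 1 lower (Piezo2). Of all 28938 genes tested, 5.46% were called in this comparison, 3.17% as higher and 2.29% as lower in heart LEC. Within a treatment fewer passed: 1 gene in ctrl (Gata2), 3 in angII (Gata2, Gja4 and Piezo2) and 2 in angII+VEGFC (Gata2 and Gja4), where 2.51%, 2.21% and 0.857% of all genes were called. The count in ctrl was 5 without mouse 1, 2 without mouse 4 and 3 with mouse as a fixed block, and that in angII+VEGFC was 1 without mouse 2. The median of the 10 genes was 0.72, beside 0.12 over all genes. The library ranges of the 2 organs did not overlap for Gata2 and Gja4, which were 2.26-fold and 2.28-fold higher in heart on the TPM + 1 scale. Markers of other cells moved with this comparison too. All 8 BEC markers were called, 7 of them higher in heart LEC, where each was above 0 in every library, as were 5 of 6 endocardial markers (summed range 888 to 2072 TPM in heart LEC and 575 to 947 TPM in diaphragm LEC, most of it Plvap, which is on both lists) and 3 of 6 fibroblast markers (690 to 1576 TPM and 123 to 992 TPM). Of the cardiomyocyte markers 3 of 5 were higher in heart LEC (73.3 to 572 TPM and 4.64 to 273 TPM), with Actc1 at 3.56, and of the mural markers 2 of 8 were (48.9 to 698 TPM and 51.0 to 527 TPM), Pdgfrb at 2.68 and Rgs5 at 1.88. In the other direction, 6 of 7 LEC markers were lower in heart LEC, with Lyve1 at -1.49, as were 4 of 5 mesothelial markers (0.617 to 194.5 TPM and 11.4 to 127 TPM, 1 higher), 3 of 4 skeletal muscle markers and 1 of 6 leukocyte markers, while of 7 arterial markers 1 was higher and 1 lower. Heart BEC themselves had a mean of 129 TPM of Gata2 and 16.9 TPM of Foxc2. The part of these other cells in the values was not tested.

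The difference in Klf2 between heart LEC and diaphragm LEC was not the same in the 2 sequencing batches. The batch change against heart BEC did not pass the test for any of the 10 genes (adjusted p = 0.479 or more, limma). In batch 1 Klf2 in heart LEC was 1045, 1329.5 and 1862 TPM in angII, 1098 TPM in angII+VEGFC, and 789 and 1416 TPM in ctrl. In batch 2 it was 2325 and 2508 TPM in angII, 2119.8 and 2722 TPM in angII+VEGFC, and 3364 and 3652 TPM in ctrl. The lowest library of batch 2 was above the highest of batch 1, and Klf2 was the one gene of the 10 for which the batches of any endothelial population did not overlap. The share of all genes whose ranges separate in this way, between batches or between populations, is not given here. Diaphragm LEC (1225 to 1509 TPM in batch 1, 757 to 1631 TPM in batch 2) and heart BEC (1126 to 4134 TPM and 1827 to 3451 TPM) overlapped between the batches.

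Compared within the same mouse, heart LEC had less Klf2 than heart BEC in 6 of 6 mice of batch 1 (mean log2 difference -1.02) and in 3 of 6 mice of batch 2 (0.05). Against diaphragm LEC, heart LEC were higher in 2 of 5 mice of batch 1 (-0.15) and in 6 of 6 mice of batch 2 (1.27). The change between batches in the heart LEC to diaphragm LEC difference was 1.503 ± 0.30 (95% interval 0.89 to 2.12, adjusted p = 0.0161), in a test added after the values were seen. In that test 0.308% of all genes were called, and none (0%) was in the corresponding tests against heart BEC, where 1452 genes for heart LEC and 472 genes for diaphragm LEC had an unadjusted p under 0.05. With a separate batch term for each population, Klf2 in heart LEC was called both against heart BEC (-0.47, adjusted p = 0.0246) and against diaphragm LEC (0.52, adjusted p = 0.0363).

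Foxc1 and Foxc2 in heart LEC gave batch differences of the same sign, none of which passed the adjusted test (limma). Foxc1 was below heart BEC in 4 of 6 mice of batch 1 (mean -0.32) and above it in 6 of 6 mice of batch 2 (1.24), a change of 1.46 ± 0.42 (adjusted p = 0.479). Foxc2 was above heart BEC in all 6 mice of each batch, by 2.46 and 3.66, a change of 1.05 ± 0.34 (adjusted p = 0.644). Against diaphragm LEC, Foxc1 in heart LEC was higher in 4 of 5 mice of batch 1 (mean 0.19) and in 6 of 6 of batch 2 (2.03), a change of 1.73 ± 0.42 (adjusted p = 0.0649). Foxc2 was higher in 4 of 5 mice (0.34) and in 6 of 6 (1.34), a change of 0.81 ± 0.34 (adjusted p = 0.603). For the other called genes the within-batch means for heart LEC against heart BEC kept their sign, at 1.60 and 1.31 for Nfatc1, 1.45 and 1.89 for Gja4, 3.01 and 2.78 for Cldn11 and 1.54 and 2.35 for Piezo2. Beside this step, heart LEC libraries had 16131 to 25896 genes at 1 TPM in batch 1 and 16756 to 22814 in batch 2, and the dissociation-responsive genes summed to 32079 to 40417 TPM and 35713 to 48364 TPM. Their part in the step was not tested.

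**Figure D3:**
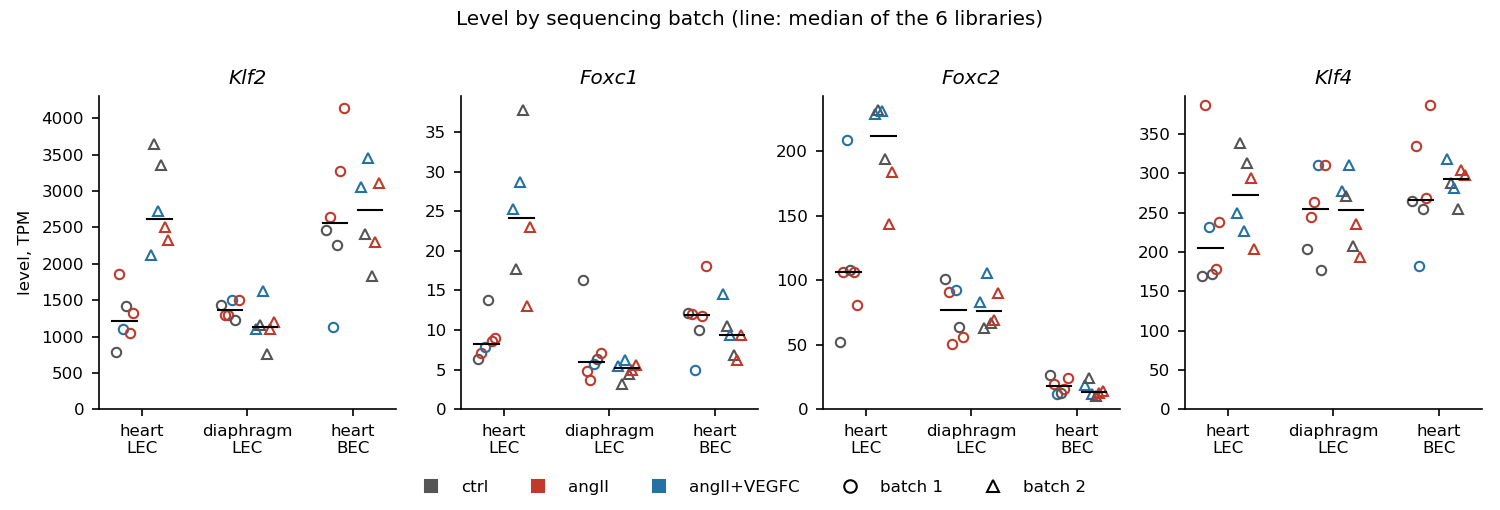
Level in TPM of Klf2, Foxc1, Foxc2 and Klf4 in each endothelial library, split by sequencing batch (circles batch 1, triangles batch 2), with a line at the median of the 6 libraries. In heart LEC the median of Klf2 was 1214 TPM in batch 1 and 2615 TPM in batch 2 and the batches did not overlap. The batches of diaphragm LEC and heart BEC overlapped for all 4 genes.

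No gene of the set passed the test for angiotensin II or for VEGFCc156s. Of 87 tests of the 10 genes (3 treatment comparisons in 3 populations, with Cldn11 below the filter in heart BEC) 0 were called. Across all genes, 0.0261% were called for angII against ctrl in heart LEC and 0% in the other 8 comparisons, in which 314 to 3651 genes had an unadjusted p under 0.05. The median over all genes was itself shifted in some of these fits, by 0.23 for angII against ctrl, -0.37 for angII+VEGFC against angII and -0.13 for angII+VEGFC against ctrl in heart LEC, and by 0.28 and -0.21 for the first 2 of these in diaphragm LEC. Of the 87 tests, 9 had an unadjusted p under 0.05, each with the angII+VEGFC or angII group higher, and all 9 are given below with limma's adjusted p. Over all genes, 1.32% to 15.3% had such a p in these comparisons. For angII+VEGFC against angII in heart LEC it was 10.8%, with 292 genes higher and 2614 lower. For angII+VEGFC against ctrl, 463 genes were higher and 862 lower in heart LEC, and 221 and 93 in diaphragm LEC. In heart BEC they were 529 and 643 for that comparison, and 547 and 602 for angII against ctrl.

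In heart LEC, Foxc2 was 209, 229 and 231 TPM in the 3 angII+VEGFC libraries, 80.5, 106.5, 106.7, 143 and 184 TPM in the 5 angII libraries and 51.8, 108, 194 and 231 TPM in the 4 ctrl libraries. All angII+VEGFC libraries lay above all angII libraries, while ctrl spanned both. Klf4 in diaphragm LEC separated as well, with angII+VEGFC (278 TPM or more) above ctrl (271 TPM or less). Groups of 3 and 5 libraries can separate by chance, and the share of all genes that do so is not given here. The difference between angII+VEGFC and angII was 0.67 ± 0.31 (adjusted p = 0.458), or 1.04 relative to the median of all genes, and the within-batch differences were 1.10 in batch 1, with a single angII+VEGFC library, and 0.50 in batch 2. Without mouse 6, one of the angII+VEGFC mice, it was 0.32 (adjusted p = 0.822), and with the number of genes at 1 TPM as a covariate 0.11. Against ctrl it was 0.67 ± 0.30 (adjusted p = 0.915), or 0.32 without mouse 1, 0.34 without mouse 6 and 1.03 without mouse 5.

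Gja4 in heart LEC was 283, 380.4 and 390.4 TPM in angII+VEGFC, 161, 228.2, 228.4, 248 and 299 TPM in angII, and 169, 233, 258 and 332 TPM in ctrl. The angII+VEGFC libraries overlapped with both other groups. The differences were 0.76 ± 0.23 against angII (adjusted p = 0.413) and 0.62 ± 0.22 against ctrl (adjusted p = 0.915). Gata2 was 140, 160.0 and 165 TPM in angII+VEGFC and 89.3, 113, 124, 142 and 144 TPM in angII, which overlapped, with a difference of 0.51 ± 0.22 (adjusted p = 0.441). The 3 genes were above angII within each batch as well, by 0.81 and 0.46 for Gja4 and by 0.53 and 0.17 for Gata2. Heart LEC of angII mice also had more genes at 1 TPM (19957 to 25896) than those of angII+VEGFC mice (16756 to 18884) and more BEC marker signal in the sum (4628 to 9624 TPM against 3981 to 4827 TPM), and the part of the BEC marker signal was not tested. With the number of genes at 1 TPM as a covariate the difference from angII was 0.11 for Foxc2 (adjusted p = 0.988), 0.03 for Gata2 (adjusted p = 0.997) and 0.64 for Gja4 (adjusted p = 0.866). Without mouse 6 it was 0.51 for Gja4 (adjusted p = 0.725), and against ctrl 0.37.

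The other 4 small values lay outside heart LEC. Piezo1 gave positive values for angII+VEGFC against ctrl in diaphragm LEC (0.57 ± 0.26, adjusted p = 1.00, with 0.35 without mouse 8 and 0.95 without mouse 2) and in heart BEC (0.43 ± 0.19, adjusted p = 0.883, with 0.29 without mouse 8), and for angII against ctrl in heart BEC (0.35 ± 0.16, adjusted p = 0.919, with 0.22 when the number of genes at 1 TPM was a covariate). Klf4 in diaphragm LEC gave 0.43 ± 0.19 for angII+VEGFC against ctrl (adjusted p = 1.00). For angII against ctrl, Klf2 gave 0.01 in heart LEC (95% interval -0.44 to 0.46), 0.16 in diaphragm LEC (-0.17 to 0.49) and 0.44 in heart BEC (-0.19 to 1.08). Cldn11 had the largest fitted value of the set, 1.03 for angII+VEGFC against angII in heart LEC, with an interval of -0.01 to 2.06. Of the genes on all lists, 1 was called for treatment, the fibroblast marker Col1a2, which was 2.84 ± 0.42 higher in angII than in ctrl in heart LEC (adjusted p = 0.0293, limma).

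Whether treatment acted differently in the populations was tested with 60 interaction terms of the 10 genes, of which 0 were called. In the 6 interaction comparisons 0% of all genes were called in 5, where 1459 to 3405 genes had an unadjusted p under 0.05, and 0.00691% in the remaining one, heart LEC against diaphragm LEC for angII against ctrl. Foxc2 had the largest of the unadjusted values, 1.17 ± 0.47 for the response of heart LEC to VEGFCc156s over angII less that of heart BEC (adjusted p = 0.727). Gata2 gave 0.51 ± 0.24 in the same comparison (adjusted p = 0.727), and 0.21 with the number of genes at 1 TPM as a covariate. Klf4 gave 0.64 ± 0.29 for diaphragm LEC less heart BEC (adjusted p = 0.678), 0.42 with that covariate and 0.38 without mouse 6. The population differences within each treatment shared their libraries with these tests. For diaphragm LEC against heart BEC 5, 6 and 5 of the 10 genes were called in ctrl, angII and angII+VEGFC, where 9.56%, 16.3% and 8.36% of all genes were.

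**Figure D4:**
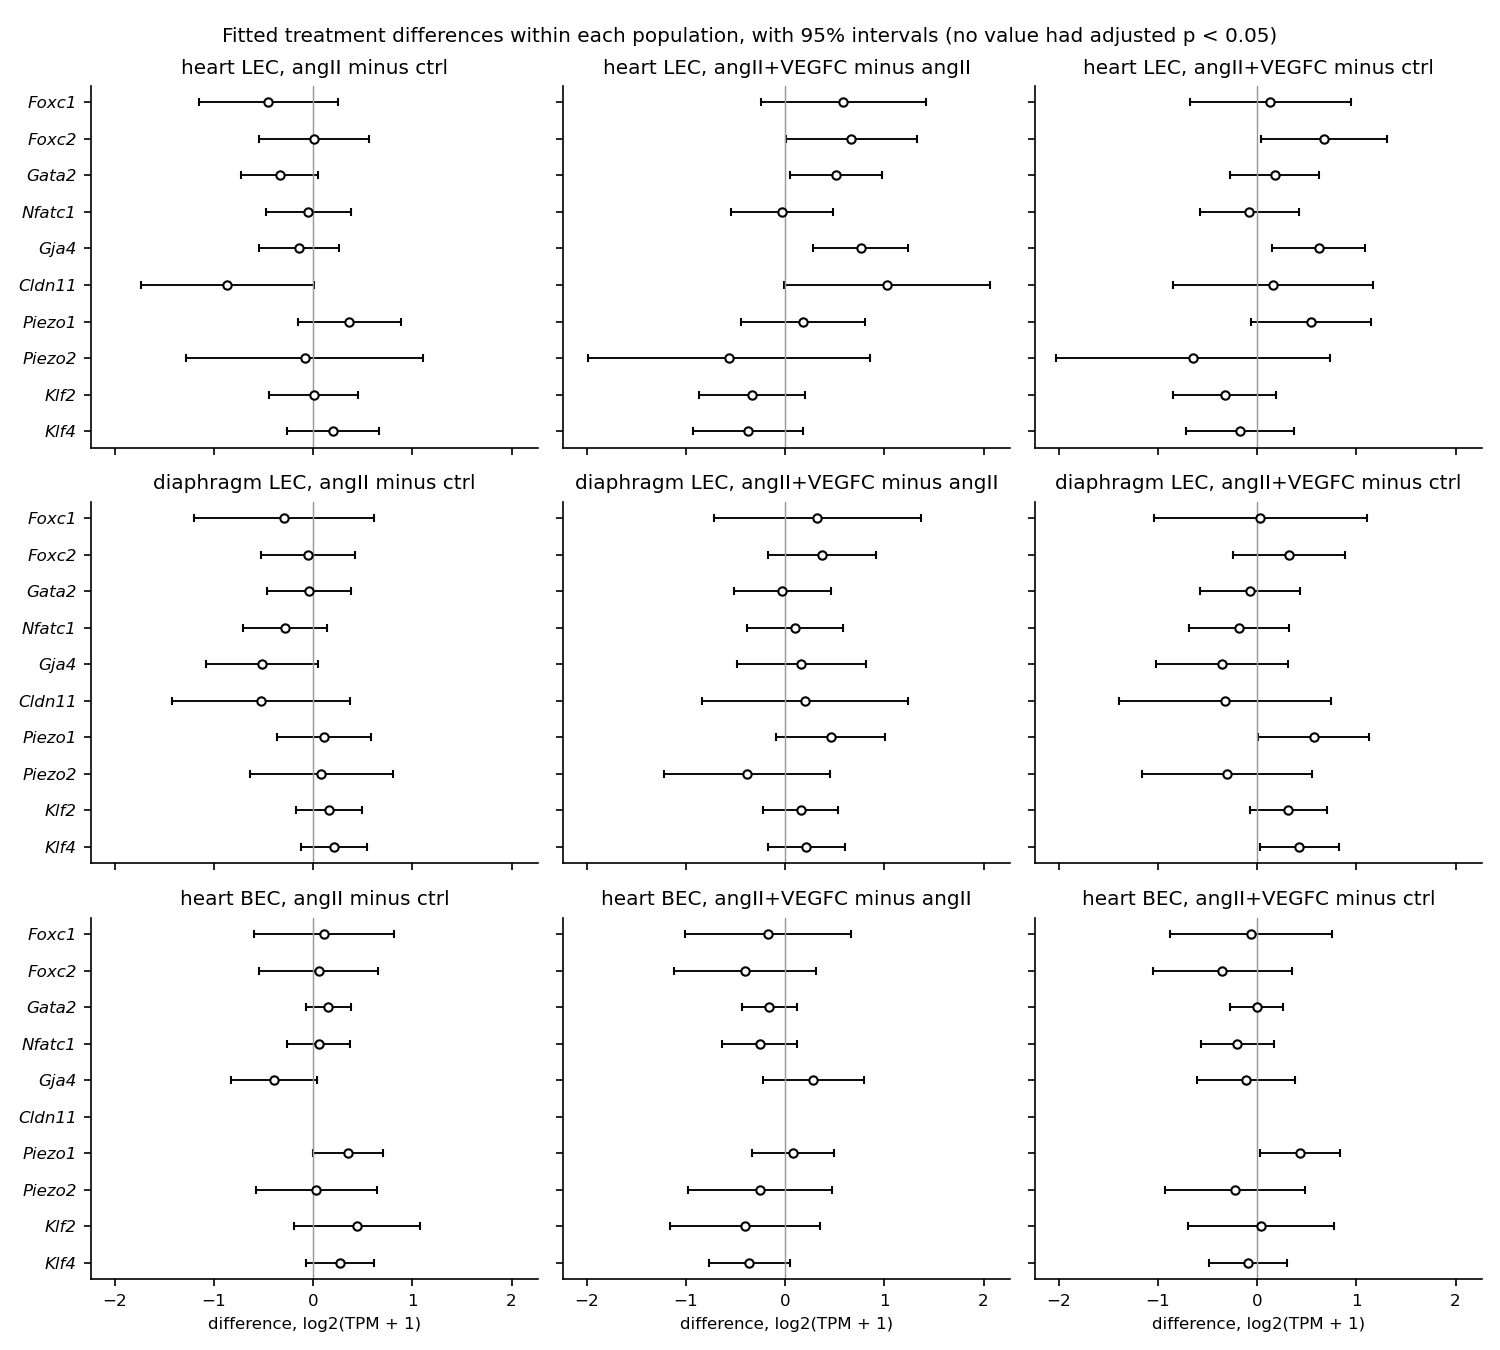
Fitted treatment differences of the 10 genes within heart LEC, diaphragm LEC and heart BEC, in log2(TPM + 1) with 95% intervals from the moderated limma fit of each population. Open circles mark values that did not pass the adjusted test, which holds for all 87. In heart LEC, Gja4, Foxc2 and Gata2 lie to the right of 0 for angII+VEGFC against angII.

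Within their own gene families the members held different places. Klf2 supplied 59.1%, 47.6% and 57.8% of the summed mean TPM of 17 KLF genes in heart LEC, diaphragm LEC and heart BEC, ahead of Klf6, and Klf4 supplied 7.33%, 9.41% and 6.20%. Of 16 KLF genes tested, 6 were lower in heart LEC and 7 in diaphragm LEC than in heart BEC and 0 were higher, with Klf12 at -0.95 and -1.17 and Klf11 at -1.06 in heart LEC. Gata2 supplied 65.3%, 86.3% and 69.8% of the GATA family. Its larger share in diaphragm LEC came with lower Gata4 and Gata6, factors of heart development, which differed by -2.72 ± 0.27 and -2.51 ± 0.25 from heart BEC and were 3.61 and 2.40 higher in heart LEC than in diaphragm LEC. Nfatc1 supplied 71.8%, 71.2% and 54.8% of the NFAT family, in which Nfatc2 was higher in both LEC populations than in heart BEC (0.95 and 1.54) and Nfatc4 lower (-1.51 and -1.56).

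Of 9 connexins tested, 3 were higher and 3 lower in heart LEC and 4 higher and 2 lower in diaphragm LEC than in heart BEC, and of 12 claudins 2 and 4 were higher and 1 and 1 lower. Gja4 ranked behind Gja1, the connexin 43 gene, in all 3 populations. Gja4 supplied 36.7% of connexin TPM in heart LEC, 11.7% in diaphragm LEC and 12.2% in heart BEC, and Gja1 supplied 47.6%, 75.9% and 77.5%. Gja1 differed in the opposite direction to Gja4 between the organs, with 347 TPM in heart LEC and 775 TPM in diaphragm LEC (-1.18 ± 0.11 for heart LEC against diaphragm LEC). Gja5, the arterial connexin 40 gene, was lower in LEC (-2.59 and -3.41). Cldn11 made up 0.502% of claudin TPM in heart LEC and 0.214% in diaphragm LEC, where Cldn5 made up 97.5% and 98.0%. Cldn5, the claudin of endothelial tight junctions, was itself 0.93 and 1.07 higher in LEC than in heart BEC, and Cldn15 was lower (-2.60 and -2.01).

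**Figure D5:**
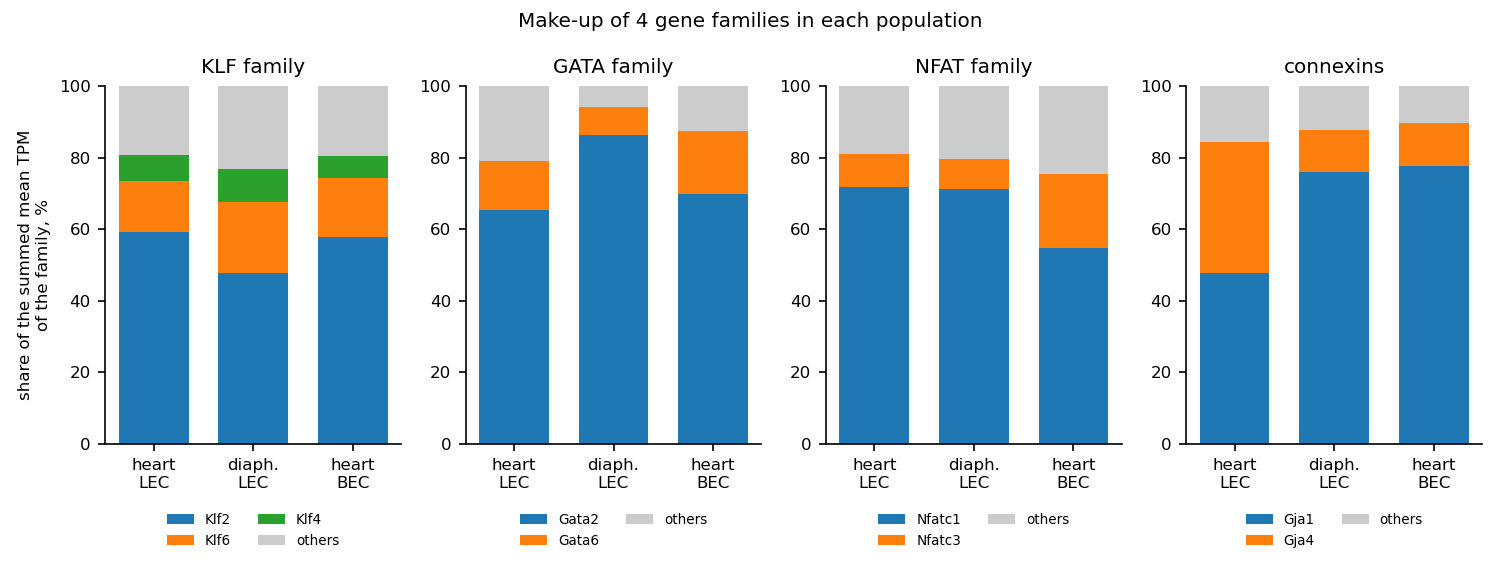
Share of the summed mean TPM of the KLF, GATA, NFAT and connexin families held by the members and the leading genes of each family, with the rest summed as others, in percent, as stacked bars for heart LEC, diaphragm LEC and heart BEC (mean of 12 libraries each). Gja4 takes 36.7% of connexin TPM in heart LEC and 11.7% in diaphragm LEC, and Gata2 86.3% of GATA TPM in diaphragm LEC.

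The partners of these genes in valve formation went both ways. Of 36 valve partners, 12 were higher and 12 lower in heart LEC than in heart BEC, 11 higher and 12 lower in diaphragm LEC, and 6 higher and 4 lower in heart LEC than in diaphragm LEC, with medians of 0.03, -0.01 and -0.07. Tbx1, a T-box factor of lymphatic growth, was 6.14 ± 0.25 and 6.72 ± 0.25 higher in LEC, at 213, 310 and 1.94 TPM in heart LEC, diaphragm LEC and heart BEC. Prox1 was 5.37 and 5.81 higher, which the eGFP sort had selected. Nrp1, a semaphorin and VEGF co-receptor, was lower in diaphragm LEC than in heart BEC (-5.65 ± 0.24) and 2.499 higher in heart LEC than in diaphragm LEC. Fn1, whose EIIIA form lies in the core of valve leaflets, was 1.98 ± 0.15 higher in heart LEC than in diaphragm LEC (345 and 87.4 TPM), and Vegfc was 1.39 ± 0.35 higher.

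Genes that sense shear were mostly lower in LEC, and those of the cascade upstream of Klf2 were lower in part. Of 14 mechanosensor genes tested, 10 were lower and 1 higher in each LEC population against heart BEC, with medians of -0.67 for heart and -0.71 for diaphragm, and 2 were lower in heart LEC than in diaphragm LEC. Plxnd1, a semaphorin receptor that senses shear, was lower in heart and diaphragm LEC (-1.99 ± 0.19 and -2.49 ± 0.19), as was Cdh5, the VE-cadherin gene (-1.29 and -1.35). Kdr, the VEGFR-2 gene, was lower in heart LEC (-1.33 ± 0.09). The 1 higher gene was P2rx4, an ATP-gated channel of shear responses (0.93 and 0.84). Of 10 genes of the cascade or the CCM complex, 5 were lower in heart LEC, 4 in diaphragm LEC and 0 were higher. Among the lower genes were Heg1, a membrane partner of that complex (-1.24 and -2.71), and Mef2d (-1.19 and -1.26). Over all genes, 9.99% were lower in heart LEC and 10.3% in diaphragm LEC than in heart BEC.

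The genes that KLF2 or KLF4 is known to raise or lower in endothelium were mostly lower in LEC too. Of 10 such genes, 7 were lower and 2 higher in heart LEC and 8 lower and 1 higher in diaphragm LEC against heart BEC (medians -0.92 and -1.85), and in heart LEC against diaphragm LEC 5 were higher and 1 lower (median 0.53). Over all genes, 9.99% were lower and 10.6% higher in the first comparison, 10.3% and 8.68% in the second, and 2.29% and 3.17% in the third. The list mixes genes that KLF2 raises with genes that it lowers, so these counts and medians do not measure KLF2 or KLF4 activity. Nos3, which encodes the endothelial nitric oxide synthase that KLF2 raises, was at 187, 96.9 and 308 TPM in heart LEC, diaphragm LEC and heart BEC. Thbd, another gene that KLF2 raises, was at 507, 301 and 626 TPM, S1pr1 at 330.3, 375 and 639 TPM and Hmox1 at 97.3, 79.0 and 67.0 TPM. Nqo1, a detoxifying reductase, was 3.20 ± 0.14 and 3.82 ± 0.14 higher in LEC. Vcam1, an adhesion molecule that KLF2 lowers, was at 73.9, 23.8 and 273 TPM, and Sele, the E-selectin gene, at 31.2, 23.2 and 104 TPM. Nos3, Thbd, S1pr1, Hmox1 and P2rx4 fall outside the rule for named genes and were chosen after their values were seen.

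In the unsorted cardiomyocyte libraries the mean of each of the 10 genes was below its mean in heart LEC. The level there, as the median percent of the heart BEC library of the same mouse, was 15.6% for Klf2 and Piezo1, 18.2% for Gata2 and 20.01% for Klf4, beside 17.2% for Pecam1 and 13.8% for Cdh5, which are genes of endothelium. It was higher for Foxc1 (28.6%), Nfatc1 (38.3%), Gja4 (68.6%), Foxc2 (68.7%) and Piezo2 (74.3%), beside 143% for the pericyte gene Rgs5 and 511% for the fibroblast gene Dcn. For Cldn11 it was 57.5%, in the 7 mice with a heart BEC value above 0, with both levels near the floor. As the cardiomyocyte libraries were sequenced in a batch of their own, cell population and batch cannot be told apart in these percents. The cell type in which these genes were expressed in the pellet was not tested.

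The genes whose levels most resembled each member over the 36 endothelial libraries differed between members. By Pearson correlation of log2(TPM + 1), Foxc2 was closest to Ankrd6 (r = 0.94), Cldn11 to Nsg1 (0.94), Nfatc1 to Klhl4 (0.96), Piezo2 to Tub (0.93), Gata2 to Cd59a (0.92), Gja4 to Itm2c (0.91) and Klf2 to Rasip1 (0.89). Piezo1, Foxc1 and Klf4 had no gene as close, with highest values of 0.75 for Cltc, 0.76 for Bmp6 and 0.71 for Kbtbd2. The points share mice, batches and 3 populations, so these values describe the libraries and most of a high value can come from the steps between populations.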

How the data were processed

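Sorted heart LEC, diaphragm LEC and heart BEC and pelleted cardiomyocytes from Prox1-eGFP mice were converted to cDNA with a Smart-Seq ultra low input kit and to libraries with Nextera XT, which does not keep strand. The authors deposited TPM values per Ensembl gene, made with STAR 2.5.3a and Salmon 0.12.0 on GRCm38 with Ensembl release 95, and their own tests used DESeq2 on estimated counts with age, batch and surrogate variables. Read counts were not analysed here, so depth per library is unknown and the number of genes at 1 TPM stands in for it. TPM summed to 997657 to 999929 per library. Of 54752 gene IDs, 54723 had a symbol in the reference table. Ages are used as labelled, in months, though the study's methods give weeks.

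For this work log2(TPM + 1) was fitted with limma 3.58.1 with a trend in R 4.3.3, with age and batch as covariates and Benjamini-Hochberg adjustment over all genes tested. Population contrasts and interactions used 1 fit of the 36 endothelial libraries (28938 genes, each reaching 1 TPM in 3 libraries of some population), and treatment contrasts 1 fit per population (26803 genes in heart LEC, 23839 in diaphragm LEC and 21281 in heart BEC). Intervals are from the moderated distribution. The script was tested on simulated data. Figures and summaries used Python 3.11.15, pandas 2.3.3, numpy 2.4.6 and matplotlib 3.10.9. The members and lists were chosen with earlier results of these data known. All 10 members are named, with up to 3 genes per list and population contrast with the largest difference among those called and the 3 most correlated genes per member (the closest is given). Exceptions are stated, and 1 gene of the lists is not reported here.

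Libraries of different populations come from the same animals, by the animal numbers in the labels, and so are paired. Deviations from group means correlated by 0.0699 on average over 34 same-mouse pairs and -0.0201 over 116 pairs of other mice of a treatment. Deviations within a group sum to 0, which ties the second value to the first, so it is no independent reference. Endothelial libraries of a mouse also share batch and age, so the first value is not that of the mouse alone. Mouse as a replicate block, another pseudocount, no filter, no covariates, 1 surrogate variable, quantile normalisation, the number of genes at 1 TPM as a covariate, smaller fits and leaving out each mouse were tried. Separate batch terms per population were added after the values were seen. Promoter windows came from RefSeq on GRCm38.p6 for 7 of the 10 members. Where replicates share a litter or cage was not given. The main population fit had no term for mouse, so its p-values measure the spread between libraries and leave out the pairing. In the treatment fits each library is a different mouse, and p-values measure the spread between these mice.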

Additional observations from a re-analysis of the deposited data

Results flagged for a closer look

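Of 60 groups of 4 or 5 libraries (10 genes in the ctrl and angII groups of 3 populations), 5 held a library far from the rest by Dixon's criterion, which chance gives in about 1 group of 20. Foxc2 in diaphragm LEC of ctrl mouse 1 was 101 TPM, against 62.9 to 66.5 TPM in the other 3. Gata2 in heart BEC of angII mouse 3 was 113 TPM, against 141 to 145 TPM. Cldn11 in heart LEC of ctrl mouse 9 was 16.9 TPM, against 6.98 to 7.52 TPM, and Cldn11 in heart BEC of angII mouse 18 was 0.488 TPM, against 0 to 0.0970 TPM. Piezo2 in diaphragm LEC of angII mouse 4 was 104.7 TPM, against 26.5 to 37.6 TPM, in the library with the lowest LEC marker sum of its population.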

How the results depend on the processing

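The population comparisons were rerun under 23 alternatives, the interactions under 22 and the treatment comparisons under 19. The counts of the 10 genes called stayed within 1.5 times the values given, except in heart LEC against diaphragm LEC within a treatment. There the count in ctrl was 3 with 1 surrogate variable, 3 and 2 with mouse as a fixed and as a random replicate block, 2 with the number of genes at 1 TPM as a covariate and 1 to 5 when a mouse was left out, and that in angII+VEGFC 1 to 2 without a mouse. The calls against heart BEC for Foxc2, Nfatc1, Gja4, Cldn11 and Piezo2 in both LEC populations, and for Gata2 and Klf2 in diaphragm LEC, held in all 23. The number of all genes called in heart LEC against diaphragm LEC, 1581, became 2390 with mouse as a fixed replicate block and 967 when only the 2 populations compared were fitted. Within a treatment the counts over all genes ranged from 1032 to 6444 (heart LEC against heart BEC in angII, 3865 as given), 2646 to 7019 (diaphragm LEC against heart BEC in angII, 4705) and 253 to 1759 (heart LEC against diaphragm LEC in ctrl, 727), lowest with the number of genes at 1 TPM as a covariate and highest with 1 surrogate variable in the first 2, and over the other 6 from 96 to 3509. The paired fits changed the call of Nfatc1 between the organs and no other member's call in the mean population contrasts. Values that turned sign all belonged to genes not called. Piezo1 in heart LEC against heart BEC was 0.0376 after quantile normalisation, 0.0606 with the number of genes at 1 TPM as a covariate, 0.00273 with separate batch terms and -0.0418 to 0.0544 when a mouse was left out. Klf4 in heart LEC against diaphragm LEC was 0.00915 and 0.0368 under the first 2 of these and -0.0952 to 0.00917 without a mouse. Klf2 in heart LEC was also called without mouse 11 against heart BEC (-0.56, adjusted p = 0.0414), and against diaphragm LEC without mouse 1 (0.74, adjusted p = 0.0122), without mouse 6 (0.70, adjusted p = 0.0393) or with the number of genes at 1 TPM as a covariate (0.72, adjusted p = 0.0469). Foxc1 in diaphragm LEC against heart BEC was also called when only the 2 populations were fitted (-0.67, adjusted p = 0.0238) and with separate batch terms (-0.66, adjusted p = 0.0227), and Nfatc1 in heart LEC against diaphragm LEC with 1 surrogate variable (-0.38, adjusted p = 0.0458). The cause of these changes was not tested. For treatment and its interactions, 0 members were called under any alternative, while for angII against ctrl the number of all genes called reached 31 in heart LEC, 520 in diaphragm LEC and 3 in heart BEC, and 304 in the interaction of diaphragm LEC with heart BEC. With TPM alone, depth cannot be used to weigh libraries, and Cldn11, Foxc1 and Piezo2 are the genes near the floor in some populations.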
